A study of Mus musculus with 22 samples.

Results

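The hemoglobin-rich cells described here were segmented cells of embryo sections in which transcripts of Hbb, the beta globin, and Hba-a1/2, the alpha globin genes measured together as 1 feature, made up at least 10% of the count. Among the 30353 cells with a total count of at least 50, 1752 met this rule, which is 5.77% of them, out of 37575 cells in all. Another 215 cells had the same hemoglobin share but a total under 50 and were left out. The 1752 cells are called members from here on, and the 28601 cells with a total of at least 50 and a lower share are called other cells. The members were thus chosen by their counts of the 2 hemoglobin rows, whose levels are given as a description, and all tests across genes use the other genes of the panel with hemoglobin taken out of the totals.

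In the mouse embryo at mid-gestation, most red blood cells are primitive erythroid cells from the yolk sac, which enter the blood while they still have a nucleus and fill with hemoglobin as they divide in the circulation. Erythropoietin holds these cells and their progenitors alive through its receptor Epor, which acts through the kinase Jak2 and the transcription factors Stat5a and Stat5b. Hemoglobin synthesis goes together with iron handling and with enzymes that remove peroxides.

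The study asked how the orphan nuclear receptors Nr4a1 and Nr4a2 act on the emergence of blood stem cells from endothelium. Its spatial measurement used CosMx, in which barcoded probes are imaged on a tissue section and each transcript is assigned to a segmented cell, here for 998 features in 22 sections of 10 µm. Of these, 13 sections came from 1 embryo null for both receptors (Nr4a1-/-Nr4a2-/-, the knockout) and 9 from 1 embryo with both receptors intact (Nr4a1+/+Nr4a2+/+, the wildtype), both at E10. The study's own text counts the sections of each genotype differently, and the labels were followed here, so every difference between knockout and wildtype rests on them. With 1 embryo per genotype, a difference between knockout and wildtype sections is one between 2 embryos, and its p-value measures only the spread between sections. The study's methods place each genotype on slides of its own, so a difference between slides and one between embryos cannot be told apart. A number in the file names, 1 or 2, whose meaning the labels do not give, occurs in both genotypes and split the knockout sections into 7 and 6 and the wildtype sections into 4 and 5.

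A section held a total count of 169038 to 887904, and its members held 3467 to 72839 counts without hemoglobin, the lowest in wildtype section 17 with 21 members and the highest in knockout section 11 with 247. Members made up 15.01% of the cells with a total of at least 50 in section 11, and 2.96% to 7.81% in the other 21 sections. A segment can take in transcripts of a neighbour or of a second cell, so the rows of other cell types are given beside the results. The targeted genes could not check the labels. Nr4a1 gave a median of 2.28 counts per 10000 in other cells of knockout sections and 2.77 in wildtype sections, both under the 3.21 per 10000 that bounds the dimmest 5% of the genes in other cells, and the edgeR quasi-likelihood fit gave a log2 fold change of -0.05 (adjusted p = 0.717). Nr4a2 gave a log2 fold change of 0.04 between the same cells (edgeR, adjusted p = 0.787), and whether its probes lie outside the deleted part was not tested.

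Members were present in all 27 imaged fields of the knockout sections and all 23 of the wildtype sections. The hemoglobin share of a member was higher in the knockout embryo, with a median of 24.2% over 1053 members against 13.4% over 699 wildtype members. Per section the median share ran from 17.4% to 29.2% in the knockout and from 11.7% to 14.7% in the wildtype, with no overlap. At least 20% of the count was hemoglobin in 64.1% of knockout members and in 15.2% of wildtype members. Members just inside the limit, at 10% to 12%, were 7.50% of the knockout members and 31.9% of the wildtype members, and just outside it, at 8% to 10%, lay 93 knockout and 347 wildtype cells. The rule thus takes the upper end of a wildtype distribution that ends lower, and any difference between the embryos in the members goes together with this difference in hemoglobin share. The median count without hemoglobin was alike, 244 in knockout and 247 in wildtype members.

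**Figure D1:**
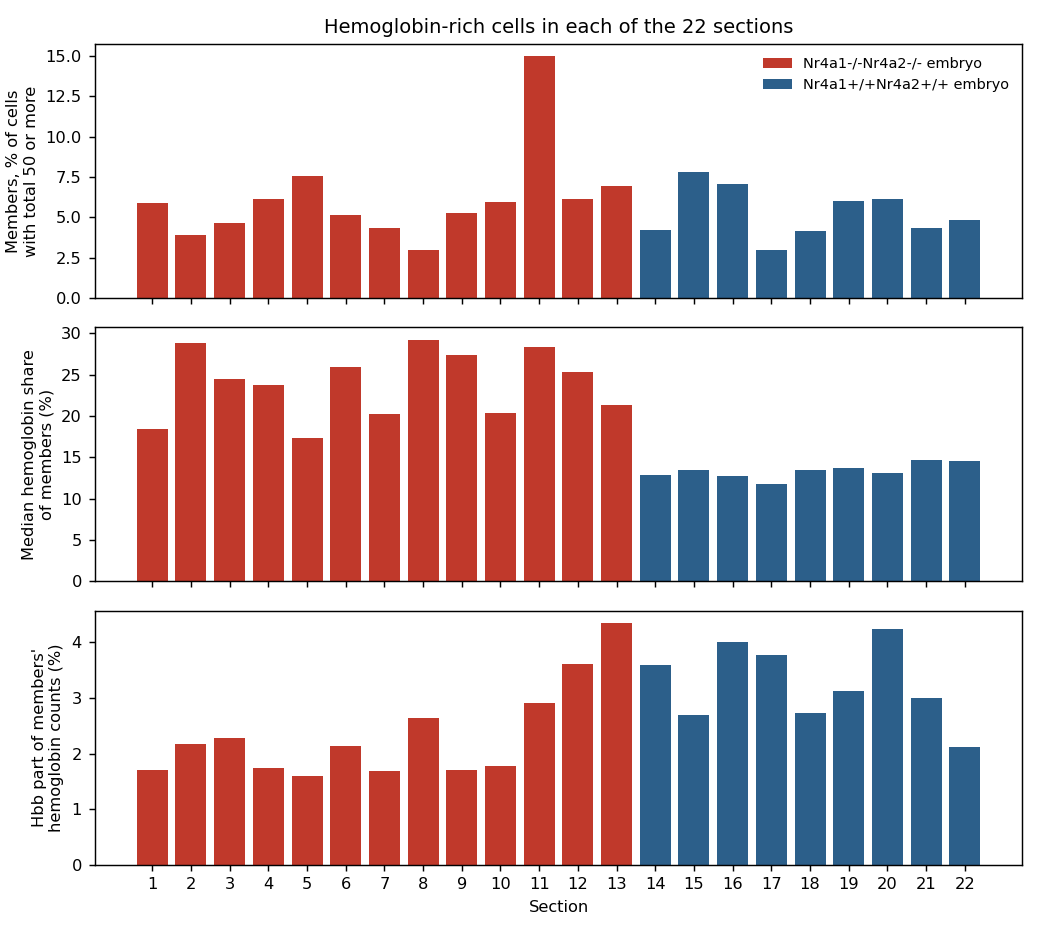
Bars give, for each of the 22 sections, the members as a percentage of cells with a total of at least 50 (top), the median hemoglobin share of the members in percent (middle) and the Hbb part of their hemoglobin counts in percent (bottom), with knockout sections in red and wildtype sections in blue. Section 11 stands out with 15.01% members, and the median share of every knockout section lies above the 14.7% that is the highest of the wildtype sections.

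Alpha globin made up nearly all of the hemoglobin counted. A member held 58.0 to 123.2 counts of Hba-a1/2 on average in the knockout sections and 21.9 to 55.4 in the wildtype sections, against 0.790 to 2.42 and 2.51 to 5.90 in other cells. Hbb contributed 1.59% to 4.35% of the hemoglobin counts of the members of a section, and 8.55% to 26.6% of those of the other cells. Both rows entered the rule, and Hba-a1/2 is nearly all of their sum, so the Hbb part is tied to the choice of members and is given with no test. It was lower in members than in other cells of the same section in all 22 sections, with means of 2.71% and 15.4%. In other cells Hbb had 0.223 to 0.338 counts per cell in the knockout sections and 0.344 to 0.583 in the wildtype sections, with no overlap. Per 10000 counts without hemoglobin, Hbb had 7.11 to 18.1 in the other cells of a section, where the median gene had 5.87. How much of these Hbb counts is background was not tested. Among members the Hbb part was 2.33% ± 0.848 (SD, n = 13 sections) in the knockout and 3.25% ± 0.696 (SD, n = 9) in the wildtype, and the 2 sets of sections overlapped. The difference was -1.61 percentage points within the sections numbered 1, -0.21 within those numbered 2, and -0.22 at a share of at least 20%.

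Against the other cells of the same section, members were highest above them in a few genes. Mt1 and Mt2, the metallothioneins, small proteins that bind zinc and copper, were 9.05-fold and 7.71-fold higher. Epor was 4.66-fold higher, Csf2rb, the shared beta chain of the IL3, IL5 and GM-CSF receptors, 4.12-fold, Gpx1, a glutathione peroxidase that removes hydrogen peroxide, 3.53-fold, and Aqp3, a water and glycerol channel of red cells and epithelia, 2.93-fold. These were the 6 genes at least 2-fold higher among the 202 called. Of the genes tested by edgeR quasi-likelihood on sums per section, 20.3% were called higher and 20.1% lower at an adjusted p under 0.05. Most of the rises were small, with only 19 of 202 at a log2 fold change of at least 0.5, against 101 of the 200 falls. With library size in place of TMM factors, the median log2 fold change over all genes moved from 0.04 to 0.21, and the share of calls that were rises went from 50.2% of 402 to 76.2% of 562. Under that scaling 43.0% of all genes were called higher and 13.5% lower.

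Epor is the one marker of the label that the rule left free, and it was high in every section. In the members of the knockout sections it had 9.67, 17.1 and 25.3 counts per 10000 counts without hemoglobin (lowest, median and highest section), and in those of the wildtype sections 10.1, 21.4 and 27.2. In other cells it had 2.30, 2.73 and 3.65 in the knockout and 3.52, 4.85 and 6.56 in the wildtype. The lowest section of members lay above the highest section of other cells, and the log2 fold change was 2.22 ± 0.09 (SE, 22 sections, edgeR, adjusted p = 5.42e-38). In members with no transcript of 5 endothelial genes (Cdh5, Pecam1, Kdr, Tek and Tie1), the log2 fold change of Epor was 2.24. Such members made up 39.2% of the members of a section on average over the 22 sections, and 61.9% at most. The remaining members held at least 1 such transcript. Whether the members without one also held fewer counts was not tested. At least 1 Epor transcript was seen in 17.6% to 46.9% of the members of a knockout section and 15.7% to 48.3% of those of a wildtype section, against 4.40% to 8.49% and 7.75% to 13.9% of other cells.

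Of the 8 genes of EPO receptor signalling, 3 rose in members, none fell and 5 did not pass, with a median log2 fold change of 0.25 against 0.04 over all genes, of which 20.3% rose. With library size alone 7 of 8 were called higher, against 43.0% of all genes. Csf2rb was higher in members in 22 of 22 sections, with a log2 fold change of 2.04 ± 0.09 (SE, edgeR, adjusted p = 4.27e-36). Stat5b, which carries the receptor's signal to the nucleus, rose by 0.40 ± 0.08 on the log2 scale (edgeR, adjusted p = 2.26e-05) and was higher in 21 of 22 sections. It did not pass without endothelial transcripts, in the sections numbered 2 alone or against other cells matched on count. Jak2, the kinase on the receptor, had a log2 fold change of 0.25 (edgeR, adjusted p = 0.0603), and Stat5a, Lyn and Bcl2l1 lay between 0.08 and 0.25. Kit, the receptor of stem cell factor and a marker of earlier progenitors, had a log2 fold change of 0.00 (edgeR, adjusted p = 0.990), with a median of 4.43 per 10000 in knockout and 5.85 in wildtype members.

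Among 16 genes of red cell surface, iron and redox, 4 rose, 2 fell and 10 did not pass, with a median log2 fold change of 0.10. The 4 that rose are a share near the 20.3% of all genes called higher, and with library size alone 10 were called higher, against 43.0% of all genes. Gpx1 led the list at 1.82 ± 0.10 (SE, edgeR, adjusted p = 9.68e-21). Its neighbours in function, the superoxide dismutases Sod1 and Sod2, had 0.03 and 0.12 (edgeR, adjusted p = 0.788 and 0.242). Nt5c3, the pyrimidine nucleotidase of maturing red cells, rose by 0.76, Slc2a1, the glucose transporter GLUT1, by 0.31 and Cd59a, which shields cells from complement, by 0.28 on the log2 scale (edgeR, adjusted p = 8.04e-11, 0.00129 and 0.00264). Slc2a1 and Cd59a did not pass at a share of at least 20%. Slc2a1 did not pass either without endothelial transcripts or in knockout sections alone, nor Cd59a in the sections numbered 1 alone or in wildtype sections alone. Cd24a and Cd164, 2 surface glycoproteins, fell by 0.51 each. The iron exporter Slc40a1 had 0.26, Cd44 -0.05 and Cd36 -0.23, none past the threshold.

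The promoters of the alpha globin, which the rule selected, and of Epor, Mt1, Mt2, Gpx1 and Aqp3, 5 of the 6 genes at least 2-fold higher, are printed so that the sequence before these genes can be compared. Each line holds the 250 bases before the start that RefSeq gives the gene (GRCm38.p6), 5′ to 3′ on the strand of the gene. Hba-a1 lies at chr11:32283422-32283671 (plus strand), Epor at chr9:21963577-21963826 (minus strand), Mt1 at chr8:94178839-94179088 and Mt2 at chr8:94172368-94172617 (both plus strand, with starts 6471 bases apart), Gpx1 at chr9:108338830-108339079 (plus strand) and Aqp3 at chr4:41098184-41098433 (minus strand). Capitals mark GATAA, the core of the motif bound by GATA factors, and TGCACNC or TGCGCNC, the core of the metal-response element, on either strand.
Hba-a1: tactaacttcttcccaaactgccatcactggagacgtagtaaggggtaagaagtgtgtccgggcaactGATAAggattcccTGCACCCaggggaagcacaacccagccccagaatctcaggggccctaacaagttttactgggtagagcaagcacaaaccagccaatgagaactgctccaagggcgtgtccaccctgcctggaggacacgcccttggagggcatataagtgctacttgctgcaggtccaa
Epor: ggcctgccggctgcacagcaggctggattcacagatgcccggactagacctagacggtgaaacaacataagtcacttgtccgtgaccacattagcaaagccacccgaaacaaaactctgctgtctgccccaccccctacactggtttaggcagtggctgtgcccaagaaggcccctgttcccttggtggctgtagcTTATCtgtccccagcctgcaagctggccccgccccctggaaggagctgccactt
Mt1: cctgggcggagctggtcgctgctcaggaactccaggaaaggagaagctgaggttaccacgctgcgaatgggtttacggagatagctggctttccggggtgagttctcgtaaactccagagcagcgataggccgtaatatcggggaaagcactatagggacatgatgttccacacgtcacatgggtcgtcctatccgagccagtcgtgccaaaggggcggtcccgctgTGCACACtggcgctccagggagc
Mt2: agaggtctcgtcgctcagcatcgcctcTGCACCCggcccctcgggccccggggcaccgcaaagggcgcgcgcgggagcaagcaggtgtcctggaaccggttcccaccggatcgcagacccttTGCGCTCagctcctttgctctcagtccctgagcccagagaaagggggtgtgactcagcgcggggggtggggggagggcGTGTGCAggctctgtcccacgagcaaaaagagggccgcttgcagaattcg
Gpx1: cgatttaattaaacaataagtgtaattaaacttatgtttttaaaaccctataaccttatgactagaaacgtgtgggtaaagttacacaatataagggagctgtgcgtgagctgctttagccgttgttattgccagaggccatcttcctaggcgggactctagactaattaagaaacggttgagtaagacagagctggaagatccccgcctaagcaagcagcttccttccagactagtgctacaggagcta
Aqp3: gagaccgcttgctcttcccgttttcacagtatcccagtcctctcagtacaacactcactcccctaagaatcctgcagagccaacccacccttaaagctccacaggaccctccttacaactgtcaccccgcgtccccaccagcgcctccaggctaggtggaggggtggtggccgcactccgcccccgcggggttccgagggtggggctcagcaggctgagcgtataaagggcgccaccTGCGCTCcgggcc
GATAA was matched 1 time each in Hba-a1 and Epor and not in Mt1, Mt2, Gpx1 or Aqp3. The metal-response core was matched 1 time in Mt1, 3 times in Mt2, 1 time in Aqp3, not in Gpx1 or Epor, and 1 time in Hba-a1. The TGCACCC in Hba-a1 and the one in Mt2 each overlap a CACCC. With the 50 bases after the start added, Mt1 held 3 matches, Mt2 4 and Aqp3 2, while Hba-a1 kept 1 and Gpx1 and Epor held none. Over all 32851 RefSeq promoters, 22.6% held GATAA and 21.4% the metal-response core in their 250 bases, and 5.17% held the latter at least 2 times. The windows of Hba-a1 and Hba-a2 were identical over the 297 bases they share, and the panel counts the 2 genes as 1 row.

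Mt1 and Mt2 were the genes furthest above other cells. Mt1 had 58.7, 99.3 and 175 counts per 10000 (lowest, median and highest section) in knockout members and 45.8, 54.8 and 65.8 in wildtype members. In other cells it had 5.03, 6.47 and 8.04 in the knockout and 8.26, 10.2 and 12.5 in the wildtype. Every section of members was above every section of other cells, with a log2 fold change of 3.18 ± 0.18 (SE, edgeR, adjusted p = 9.08e-13). Mt2 had a median of 107 and 60.4 in knockout and wildtype members against 8.04 and 12.8 in other cells, and a log2 fold change of 2.95 ± 0.16 (SE, edgeR, adjusted p = 2.00e-13). The 2 proteins are close in sequence, and how far a probe of 1 gene reads the other was not tested.

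**Figure D2:**
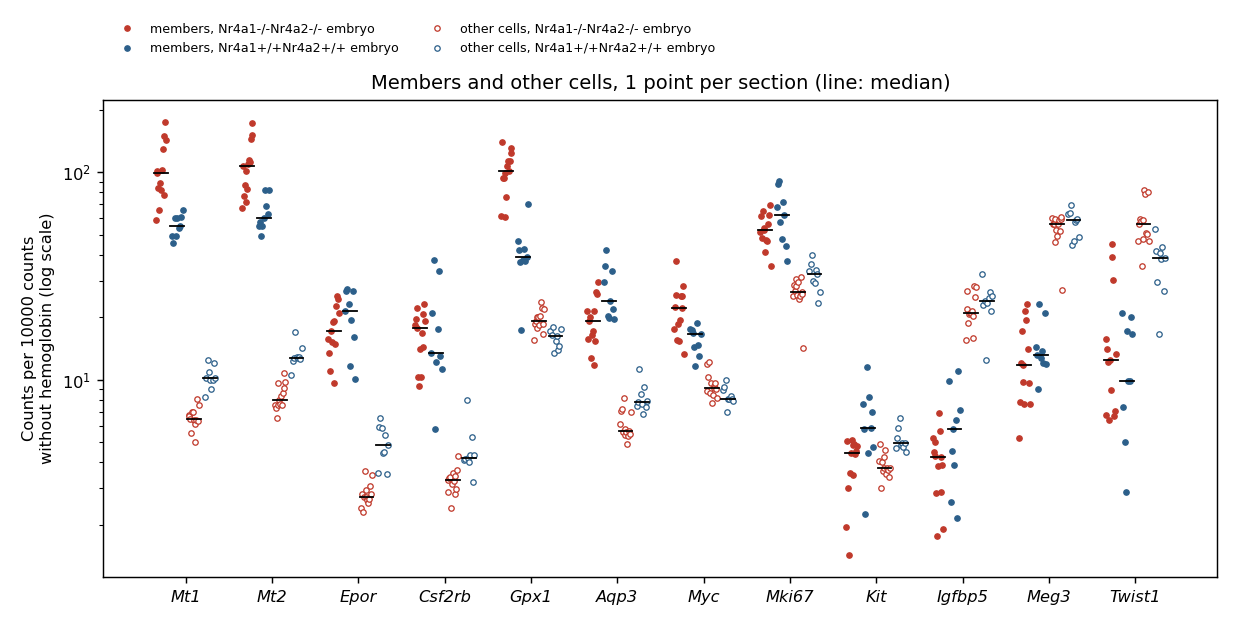
Points give the counts per 10000 counts without hemoglobin (log scale) of 12 genes in each section, for members (filled) and other cells (open), with knockout sections in red, wildtype sections in blue and black lines at the medians. All member sections lie above all sections of other cells for Mt1 and Mt2 and, for Igfbp5 and Meg3, below them, while Gpx1 overlaps in 1 wildtype section and Kit in most.

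Exactly 10 genes passed the test and were higher in members in each of the 22 sections, namely Mt1, Mt2, Epor, Csf2rb, Gpx1, Aqp3, Myc, Mki67, Krt15 and Srgn. Mki67, a nuclear protein of cycling cells, had medians of 52.8 and 62.2 per 10000 in knockout and wildtype members against 26.5 and 32.5 in other cells. Its log2 fold change was 0.83 ± 0.08 (SE, edgeR, adjusted p = 5.24e-16). Myc, a transcription factor of growing cells, rose by 0.92 ± 0.08 on the log2 scale (edgeR, adjusted p = 8.21e-18). Krt15, a keratin, and Srgn, the proteoglycan of blood cell granules, rose by 0.73 and 0.47.

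The rest of the proliferation list did not follow Mki67. Of its 16 genes, 11 fell, 4 did not pass and 1, Mki67, rose, and the median log2 fold change was -0.32. Over all genes 20.1% fell and 20.3% rose, which applies to each list of the comparison. Stmn1, which destabilizes microtubules, fell by 1.27, Tubb5, a tubulin, by 0.84, Hmgb2, a chromatin protein, by 0.81 and Top2a, the topoisomerase of dividing cells, by 0.43 on the log2 scale. With library size alone 2 of the 16 were called higher and 7 lower, against 43.0% and 13.5% of all genes. Stmn1 was lower in members in all 22 sections, with medians of 52.7 and 39.0 per 10000 in knockout and wildtype members and 128 and 79.5 in other cells (edgeR, adjusted p = 1.77e-21). Of 9 genes of glycolysis and hypoxia 5 fell and 3 rose, Eno1/b by 1.36 downwards and Slc2a1 by 0.31 upwards. Of 6 chaperones 3 fell, Hsp90b1, Hsp90ab1 and Hsp90aa1, and none rose. With library size alone the median of the chaperone list turned positive, with 3 of 6 called higher and the other 3 lower. Of 11 genes of translation and housekeeping 6 fell and 5 did not pass, and with library size alone 4 were called lower and 2 higher.

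Falls reached further than rises outside the 6 leading genes. Igfbp5, which binds insulin-like growth factors, had medians of 4.26 and 5.77 per 10000 in knockout and wildtype members against 20.9 and 23.9 in other cells. Its log2 fold change was -2.50 ± 0.13 (SE, edgeR, adjusted p = 3.46e-19), and it was lower in 22 of 22 sections. Meg3, an imprinted noncoding RNA, fell by 2.24, Twist1, a transcription factor of mesenchyme, by 2.01, Cxcl12, a chemokine of stroma, by 1.69 and Igf2, a growth factor, by 1.37 on the log2 scale. In all, 19 genes passed and were lower in members in each of the 22 sections. All 10 genes of smooth muscle and mesenchyme fell, with a median log2 fold change of -1.04, Col3a1 by 1.78 and Acta2 by 0.66. Their summed level was 73.5 to 131 per 10000 in knockout members and 81.3 to 361 in wildtype members, against 191 to 330 and 158 to 423 in other cells. Col1a1 alone had 194 per 10000 in the members of section 22, where other cells had 176. Of 5 epithelial genes 4 fell, but with library size alone 1 of the 5 was called lower.

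Markers of vessel and other blood cells were counted in members as well. Of 13 endothelial genes 9 rose and none fell, with a median log2 fold change of 0.33, and Cdh5, the cadherin of endothelium, had 25.4 counts per 10000 in all members against 16.3 in other cells. Their summed level was 128 to 205 per 10000 in knockout and 119 to 211 in wildtype members, and 89.2 to 133 and 115 to 141 in other cells. Of 12 macrophage genes 5 rose and none fell, led by Aif1 at 0.46, and of 10 granule and platelet genes 2 rose and none fell, Mpo at 0.54 and Prtn3 at 0.40. The granule and platelet share is near the 20.3% of all genes called higher. With library size alone 13 of 13 endothelial, 8 of 12 macrophage and 10 of 10 granule and platelet genes were called higher, against 43.0% of all genes. The summed level of the macrophage list was 57.4 to 98.9 and 78.1 to 115 per 10000 in knockout and wildtype members and 55.0 to 65.8 and 74.4 to 98.1 in other cells. Cdh5 was higher in members in 15 of 22 sections and Aif1 in 20, with Aif1 at 0 in section 17, and the part of neighbouring cells in these counts was not tested. Of 10 progenitor genes 2 rose, Srgn and Cd34, and 2 fell, Ptprc and Mecom, shares near the 20.3% and 20.1% of all genes called higher and lower. Scaling by library size alone gave 3 higher and 1 lower. Runx1 and Gata2, transcription factors of emerging blood stem cells, had log2 fold changes of -0.02 and 0.07 (edgeR, adjusted p = 0.917 and 0.668).

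**Figure D3:**
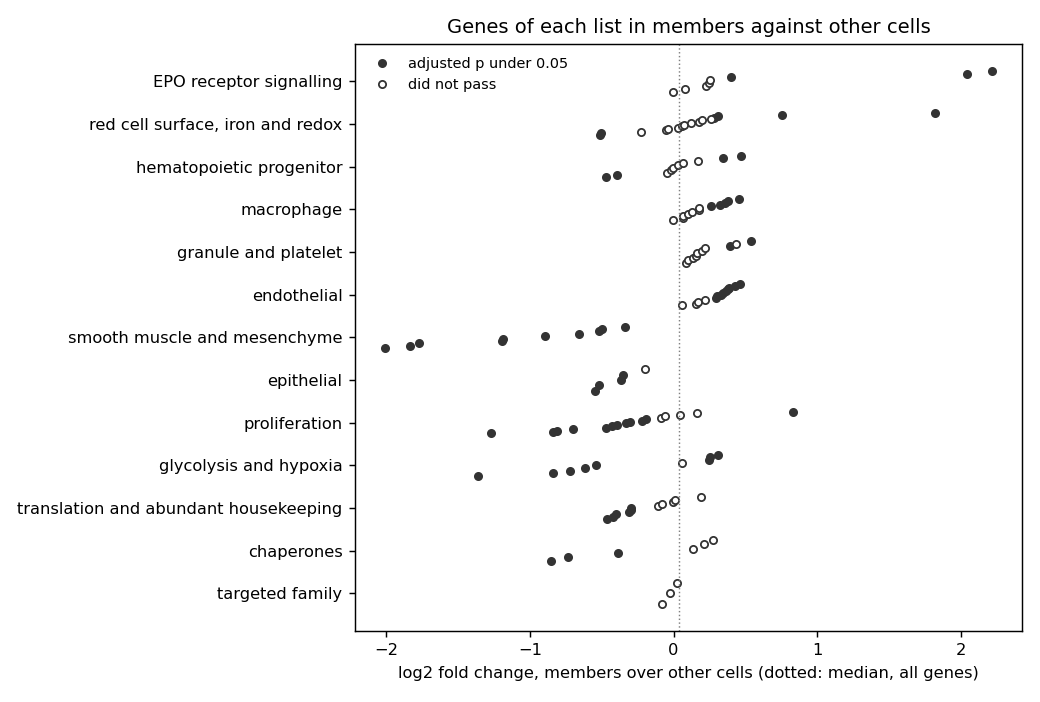
Points give the log2 fold change of members over other cells (edgeR, 22 sections) for each gene of 13 lists, filled where the adjusted p was under 0.05, and the dotted line marks the median of all genes tested at 0.04. All 10 genes of smooth muscle and mesenchyme lie on the left, and the points furthest to the right are Epor, Csf2rb and Gpx1.

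Members were also compared with 2 kinds of cells that carry vessel or receptor transcripts. Endothelial-gate cells, 5910 cells with a hemoglobin share under 10% and at least 3 transcripts of Cdh5, Pecam1, Kdr, Tek and Tie1 together, hold genes of the lining of blood vessels. Against them, 14.4% of 986 genes were higher and 18.9% lower in members (edgeR), with Mt1 at a log2 fold change of 2.99, Mt2 at 2.81, Epor at 2.14, Csf2rb at 1.96, Gpx1 at 1.90, Aqp3 at 1.47, Myc at 1.02 and Mki67 at 0.87. Of the endothelial genes outside the gate none was higher in members. The second kind, 1388 cells with a share under 10% and at least 2 transcripts of Epor and Csf2rb together, shares the receptors by its rule. Against these, 5.04% of 913 genes were higher and 10.4% lower, and Mt1, Mt2 and Gpx1 still rose by 2.78, 2.57 and 1.79 on the log2 scale (edgeR, adjusted p = 6.53e-09, 5.85e-09 and 1.70e-14). Aqp3, Mb, Myc and Mki67 rose by 1.26, 0.90, 0.89 and 0.78. Against the same cells 4 of 13 endothelial genes were higher in members and 0 lower, with a median log2 fold change of 0.28. With library size alone 8 of the 13 were called higher, against 91 of all 913 genes. Library size alone moved the share of rises among the calls from 43.3% to 72.1% for the first kind and from 46 of 141 to 91 of 175 calls for the second.

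Mt1 and Gpx1 were graded by the hemoglobin share below the 10% limit as well as above it in both embryos, and Epor above it in the knockout alone, with no test made over these pooled cells. In the pooled cells of the knockout embryo, Epor had 2.64 counts per 10000 at a share under 2%, 3.81 at 2% to 5%, 8.78 at 5% to 10%, 15.9 at 10% to 20%, 21.2 at 20% to 40% and 24.9 at 40% or more. In the wildtype embryo it had 3.52, 5.34, 15.8, 21.97, 16.01 and 8.83, with 94 cells in the fifth class and 12 in the sixth. Epor was thus at 15.8 in wildtype cells at 5% to 10% and at 15.9 in knockout cells at 10% to 20%. Mt1 went from 5.77 to 264 per 10000 over these classes in the knockout and from 7.27 to 203 in the wildtype, and Gpx1 from 19.3 to 222 and from 14.7 to 230. Col1a1 went from 70.5 to 15.3 in the knockout and had 70.5, 88.2, 34.5, 32.1, 61.7 and 79.5 in the wildtype. Cdh5 was highest at 2% to 5%, with 40.2 in the knockout, where it was 14.6 under 2% and 15.7 at 40% or more, and in the wildtype had 36.4 at 2% to 5% and 49.2 at 20% to 40%.

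**Figure D4:**
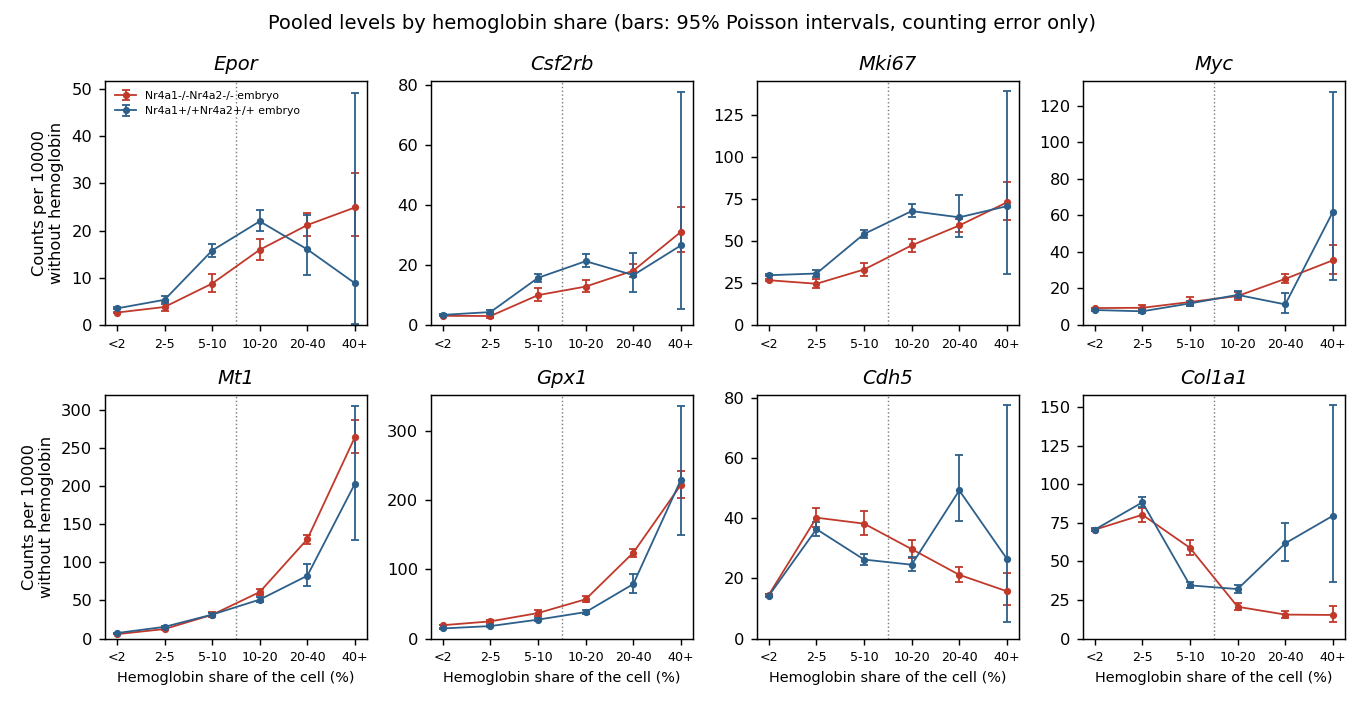
Lines give pooled counts per 10000 counts without hemoglobin of 8 genes in 6 classes of hemoglobin share, for the knockout (red) and the wildtype embryo (blue), with 95% Poisson intervals that cover counting error only and a dotted line at the 10% limit. Mt1 and Gpx1 climb through all classes in both embryos, and the last wildtype class rests on 12 cells.

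Within sections the relation to the share could be tested. Members above the median hemoglobin share of their own section were compared with those below it in sections with at least 20 members, where 203 genes could be tested, and 11.3% of these were higher and 3.45% lower in the members above the median (edgeR). Gpx1, Mt2 and Mt1 led, with log2 fold changes of 0.96 ± 0.10, 0.83 ± 0.09 and 0.83 ± 0.10 (SE, edgeR, adjusted p = 8.97e-11, 4.76e-10 and 5.16e-09), followed by Ybx3, a cold-shock protein that binds RNA, at 0.74 and Hsp90aa1 at 0.63. All 11 genes of translation and housekeeping were higher above the median share, with a median of 0.49 against -0.07 over the genes tested. With library size alone 9 of 11 were higher, against 17 of all 203 genes. Within wildtype sections alone 3 of 10 tested were higher, against 8 of all 332 genes. Within knockout sections alone 9 of 11 were, against 21 of all 153. Epor, Csf2rb and Mki67 had 0.24, 0.33 and 0.17 and did not pass (edgeR, adjusted p = 0.246, 0.203 and 0.322). Col1a1 fell by 0.86 (edgeR, adjusted p = 3.03e-05), and Itga6, Prf1, Npr1 and Krt8 by 0.63, 0.54, 0.44 and 0.44. The falls of Prf1, Npr1 and Krt8 were lost when single sections were left out. In wildtype sections alone Gpx1 had 0.49 and Mt1 0.41, neither past the threshold (edgeR, adjusted p = 0.0808 and 0.0902), while Mt2 passed at 0.59 (edgeR, adjusted p = 0.00339). Without endothelial transcripts Mt1 had 0.52 (edgeR, adjusted p = 0.0519).

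Between the embryos, members of the knockout sections had more Gpx1, metallothionein and transcripts of 7 of 11 genes of translation and housekeeping. Of 768 genes tested over the members of 22 sections, 2.21% were called higher and 0.130% lower in the knockout (edgeR), which is 17 genes and 1. Gpx1 had 61.1, 101 and 140 counts per 10000 (lowest, median and highest section) in knockout members and 17.3, 39.1 and 70.0 in wildtype members, a log2 fold change of 1.43 ± 0.22 (SE, edgeR, adjusted p = 3.10e-06). For Gpx1, 11 of 13 knockout sections were above every wildtype section, and for Mt1 12 of 13, while no called gene was free of overlap. Mt1 and Mt2 were higher by 1.06 ± 0.22 and 0.91 ± 0.21 on the log2 scale (edgeR, adjusted p = 0.000394 and 0.00418). Myc was among the 17 at 0.62 (edgeR, adjusted p = 0.0377).

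Of the 11 genes of translation and housekeeping, 7 were higher in knockout members, with a median log2 fold change of 1.00 against -0.01 over all genes tested. They included Tpt1, the translationally controlled tumor protein, at 1.11 ± 0.22, Eif5a, a translation factor, at 1.13 ± 0.23, Btf3, a nascent chain factor, at 1.15 ± 0.21 and Fau, which encodes a ribosomal protein, at 1.00 ± 0.22. With library size alone 6 of 11 were higher, against 10 of all 768 genes, and the median over all genes moved to -0.18. In the other cells of the knockout all 11 were higher (edgeR), with a median of 0.87, where 10.2% of all genes were higher. The test of the difference between members and other cells called 0 of the 11. In knockout members Hsp90ab1 and Hsp90aa1 were higher by 1.18 and 0.77. Il36g, a cytokine of epithelia, was the only gene lower, by 0.78 (edgeR, adjusted p = 0.0491), at a median of 3.82 per 10000 in knockout and 7.03 in wildtype members, and the call was lost when most single sections were left out in turn. Epor, Csf2rb and Mki67 had -0.04, -0.09 and -0.09 and did not pass (edgeR, adjusted p = 0.956, 0.937 and 0.937). Of the endothelial, macrophage, and smooth muscle and mesenchyme lists 0 genes were called between the embryos in members, with medians of 0.12, -0.15 and -0.14. Col1a1 had -1.37 (edgeR, adjusted p = 0.263). The test of the difference between members and other cells also called 0 genes of these lists, with medians of 0.13, 0.005 and -0.37.

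These differences go with the hemoglobin share of the members, whose part in them was not tested. With the 3% of cells of highest hemoglobin share in each section in place of the 10% limit, Gpx1, Mt1 and Mt2 were higher in the knockout by 1.71, 1.299 and 1.08 on the log2 scale. This limit takes the same part of the cells of each section and does not make their hemoglobin shares alike. Of cells with a total of at least 50, 675 of 17014 knockout and 106 of 13339 wildtype cells reached a share of 20%. With a limit of 20%, which leaves 6 wildtype sections, Gpx1, Mt1 and Mt2 were higher by 0.62, 0.55 and 0.54 and none passed (edgeR, adjusted p = 0.134, 0.156 and 0.156). In the pooled cells at a share of 10% to 20%, Mt1 had 61.1 per 10000 in the knockout and 51.1 in the wildtype, and Gpx1 56.9 and 38.3. At 20% to 40%, Mt1 had 130 and 82.4 and Gpx1 124 and 78.9. In the sections numbered 1 alone Mt1 and Mt2 did not pass (edgeR, adjusted p = 0.0861 and 0.0948), and in those numbered 2 alone they did.

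Of the 17 genes higher in knockout members, 15 were also higher in the other cells of the knockout, where 10.2% of all genes were called higher and 3.71% lower (edgeR). With library size alone, other cells had 56 genes higher and 708 lower, the median log2 fold change moved from -0.03 to -0.30, and 14 of the 17 were called higher. The other 2 of the 17 were the metallothioneins. In other cells Mt1 and Mt2 were lower in the knockout, with log2 fold changes of -0.38 and -0.37 (edgeR, adjusted p = 0.000703 and 0.00153), and of -0.65 each with library size alone. The test of the difference between members and other cells gave 1.40 ± 0.17 for Mt1 and 1.26 ± 0.16 for Mt2 (SE, edgeR interaction, adjusted p = 1.15e-09 and 6.79e-09). Gpx1 followed with 0.89 ± 0.17 (edgeR, adjusted p = 0.000193), which did not pass at a share of at least 20% (adjusted p = 0.413) or in the sections numbered 2 alone (adjusted p = 0.0954), and Krt18, a keratin of simple epithelia, had -0.84 (edgeR, adjusted p = 0.0373), a call that was lost under most alternatives. Of all genes, 0.301% were called in the first direction and 0.100% in the second. Hemoglobin made up 0.343% to 0.796% of the counts of other cells in the knockout sections and 0.914% to 1.97% in the wildtype sections, and its part in the lower Mt1 and Mt2 of the knockout's other cells was not tested. For Epor the test of the difference gave 0.51 (edgeR, adjusted p = 0.327).

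**Figure D5:**
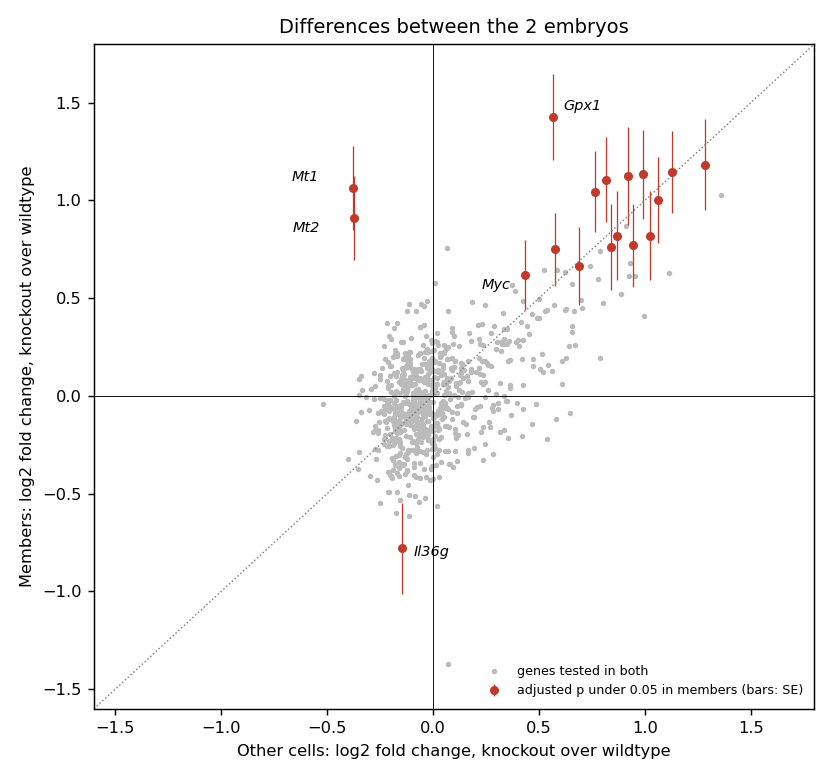
Points give, for each gene tested in both, the log2 fold change of knockout over wildtype sections in other cells (horizontal) and in members (vertical), with genes called in members in red and bars of 1 SE, and a dotted line where both are equal. Mt1 and Mt2 lie at the upper left, higher in knockout members and lower in the other cells of the knockout, and Il36g is the only called gene under 0 in members.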

How the data were processed

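CosMx data of 22 sections from 2 E10 embryos were used. Segmentation in AtoMx was done by the authors, who deposited raw transcript counts per feature and cell for each section, with no normalization. The labels name both fresh frozen and paraffin-embedded tissue, and the study's methods give fresh frozen. The labels' genotype gave the groups. Members and gene lists were chosen with earlier results of these data known. Counts of members and of other cells were summed per section without hemoglobin, since cells of a section are not replicates. Sums were compared with edgeR 4.0.16 (TMM, filterByExpr, robust quasi-likelihood fit, section as block within sections, Benjamini-Hochberg adjustment, threshold 0.05) in R 4.3.3. DESeq2 1.42.0 and limma 3.58.1 (voom, with the number in the file name as random block) were alternatives. Sums needed at least 10 members, and the split at the median share 20. Hemoglobin ratios were described in Python 3.11.15, and exact permutation p-values of them are not given, since both rows entered the rule. Rates are counts per 10000 counts without hemoglobin, and intervals cover counting error only. Cells with the same counts in 2 sections numbered 0. Named genes were the EPO receptor and red cell lists, the 10 largest rises and falls with 1 direction in every section, the 10 largest each way between embryos with 1 direction in all comparisons of numbered sets, 5 each way for the split at the median share and the interaction, Nr4a genes, and examples of the other lists. On simulated counts with known changes, the edgeR fit recovered 98.5% of genes changed 2-fold between the embryos (768 genes) and 50.8% of those changed 1.5-fold. Neither hemoglobin row entered the edgeR fits. The result of 1 gene list is not reported here.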

Additional observations from a re-analysis of the deposited data

Results flagged for a closer look

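In the 9 wildtype sections, 9 of the 64 measures examined had 1 section whose distance from its neighbour took more than 0.493 of the range. Chance gives this in about 1 of 20 groups where sections are equally precise. Here they were not, as the members of a wildtype section held 3467 to 32487 counts without hemoglobin, the fewest in section 17. Section 17, with 21 members, was the furthest for 5 genes, with 49.03 counts per 10000 for Cd59a, 34.6 for Npr1, 40.4 for Nt5c3 and 28.8 for Prf1 at the high end and 11.5 for Slc2a1 at the low end. Section 21 was the furthest for Jak2 at 2.00, Sod1 at 87.2 and Tpm1 at 89.2 per 10000. Section 22 was the furthest for Col1a1 at 194 per 10000.

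The difference between the embryos was not the same in members and in other cells for 4 genes by the interaction test. The interaction log2 fold changes were 1.40 for Mt1, 1.26 for Mt2, 0.89 for Gpx1 and -0.84 for Krt18.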

How the results depend on the processing

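Members rest on 21 to 247 cells per section, dim genes on few transcripts, and the comparison of genotypes on 1 embryo each, so no fit with embryos as units was possible. The labels give no replicate numbers that the genotypes share, and the number in the file names is not stated to pair sections. A share of at least 20% leaves 6 wildtype sections in the comparison of embryos.

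Against other cells, 202 genes were higher and 200 lower. Genes higher numbered 428 with library size alone, 71 at a share of at least 20%, 34 without endothelial transcripts, 121 and 89 in the sections numbered 1 and 2 alone, 50 in wildtype sections alone, 106 against matched other cells and 67 with the rank limit, which was chosen after seeing the data. Genes lower numbered 128 at 20%, 90 in wildtype sections alone and 124 with the rank limit. Leaving out single sections gave 180 to 206 higher and 190 to 204 lower.

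Between the embryos, 17 genes were higher and 1 lower in knockout members. Genes higher numbered 10 with library size alone, 27 with DESeq2, 31 at a share of at least 5%, 1 at 20% (of 173 genes tested), 7 without endothelial transcripts (of 63 tested) and 6 in the sections numbered 1 (of 838 tested), against 768. With limma voom and the number as a random block, 13 were higher and 1 lower, and with the number as a replicate block in edgeR, added after seeing the data, 26 were higher and 1 lower. Genes lower numbered 3 with library size alone, 14 without endothelial transcripts, and 0 with DESeq2, in the sections numbered 1 or 2 alone, with the rank limit and without sections 11 and 17. Leaving out single sections gave 11 to 25 higher and 0 to 1 lower.

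Between members above and below the median share, 23 genes were higher and 7 lower. Genes higher numbered 6 at 20% (of 66 genes tested, with 1 wildtype section), 4 without endothelial transcripts (of 29 tested, against 203), 12 in the sections numbered 1 and 8 in wildtype sections alone. Genes lower numbered 21 with library size alone, 1 without the gene filter, 16 at 5%, 4 without endothelial transcripts, 2 and 3 in the sections numbered 1 and 2, 18 in knockout and 1 in wildtype sections alone. Leaving out single sections gave 21 to 27 higher and 2 to 8 lower. Krt8 reversed at 5%, with a log2 fold change of 0.047 (edgeR, adjusted p = 0.909).

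In the interaction, 3 genes were called in the first direction and 1 in the second, the latter 0 with library size alone and against matched other cells, and 2 with DESeq2 and in the sections numbered 1. Leaving out single sections gave 3 to 3 and 0 to 4. Between the embryos in other cells, library size alone, added after seeing the data, gave 56 higher and 708 lower in place of 102 and 37. Against endothelial-gate cells, library size alone gave 330 higher, and wildtype sections alone 37 higher and 84 lower. Against cells with Epor or Csf2rb transcripts, library size alone gave 91 higher, a stricter gate, which leaves 5 knockout sections and 664 genes tested against 913, 16 higher and 15 lower, and wildtype sections alone 12 higher and 23 lower. The Hbb difference between the embryos was -0.22 points at 20%, -0.21 in the sections numbered 2 and -1.09 to -0.80 without single sections. The cause of these changes was not tested. Of the values of single genes between the embryos, 144 kept their direction and side of the threshold under the alternatives that keep all sections or change the gate, and 22 lost the threshold.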
